A study of Homo sapiens with 10 samples.

Results

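UCA1 and 8 other long noncoding RNAs (lncRNAs) that are studied in cancer, MALAT1, NEAT1, PVT1, GAS5, H19, HOTAIR, TUG1 and MEG3, were compared between the parental bladder cancer cell line T24, of human origin, and T24R2, a cisplatin-resistant line made from it. The 9 genes were taken by name from the 61533 genes of the count tables, and 7 of them were among the 16181 genes with enough counts to be tested. HOTAIR and MEG3 had 1 count each over all 10 libraries and were not tested. RNA-seq libraries were made from 5 replicates of each line at day 3 of culture. T24R2 was derived by serial exposure to cisplatin, a platinum drug that crosslinks DNA. The methods keep T24R2 in medium that holds cisplatin, whereas the labels list the same drug-free medium for both lines, so the line and the drug exposure cannot be told apart here. T24R2 is 1 derived line, and nothing in the labels says that the replicates were separate cultures, so p-values measure only the spread between these libraries, which may be technical.

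LncRNAs are transcripts that act without being translated, as scaffolds, decoys or guides for proteins and other RNAs, or through the act of their own transcription. UCA1 was described early in urothelial carcinoma and is widely studied as an oncogenic transcript and in relation to cisplatin response. MALAT1 is a nuclear RNA of splicing speckles and NEAT1 is the architectural RNA of paraspeckles. GAS5 is the host of small nucleolar RNAs (snoRNAs) carried in its introns, H19 and MEG3 are imprinted transcripts expressed from the maternal allele, PVT1 lies next to MYC, and HOTAIR lies in the HOXC cluster.

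The T24 libraries held 9257843 to 10247941 counts and the T24R2 libraries 9591379 to 10840954, and no pair of replicates agreed within sampling noise (the smallest chi-square was 2.01 per degree of freedom). T24R2 replicate 3 stood somewhat apart, with the highest mitochondrial share (2.97% against 2.35% to 2.58% in the other T24R2 libraries) and the lowest MALAT1, NEAT1 and GAS5 levels of its line. Without it the log2 fold change (T24R2/T24) was -0.75 for MALAT1, -0.23 for GAS5 and 0.21 for TUG1, and UCA1 and H19 were still called lower in T24R2. The epithelial keratins KRT7, KRT8 and KRT18 were high in both lines and fell by 0.61 to 0.71 on the log2 scale. All 6 tested of 8 urothelial and epithelial markers fell, KRT19 from 267 to 0.0887 CPM (counts scaled to library size), GATA3 from 22.1 to 0.214 CPM and UPK2 from 9.90 to 2.74 CPM, with UPK1B and UPK3A next to 0 in both lines. The summed level of the 8 markers was 4860 to 5600 CPM in T24 libraries and 2990 to 3190 CPM in T24R2 libraries. The summed level of 4 markers of other cells (PTPRC, PECAM1, HBB and RGS5) was 3.79 to 8.57 CPM and 3.83 to 5.11 CPM, but its members moved in opposite directions. PECAM1, an endothelial marker, fell from 5.36 to 1.17 CPM and RGS5, a pericyte marker, rose from 0.811 to 2.79 CPM. PTPRC, a leukocyte marker too low to be tested, had 2 counts in T24 and 26 in T24R2, and the lines did not overlap. HBB had 3 counts and 0. The part of these markers in the lncRNA results was not tested.

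Of the 7 tested lncRNAs, 3 were lower in T24R2 (UCA1, MALAT1 and H19), 0 were higher and 4 were not called (NEAT1, PVT1, GAS5 and TUG1). A gene was called when the adjusted p of edgeR's quasi-likelihood test was under 0.05 and the log2 fold change was over 0.5 in size. Over all tested genes, 26.5% were called lower, 24.9% higher and 51.4% in either direction, and among the 2943 tested lncRNA genes 24.4% were called lower and 29.9% higher. The libraries of both lines did not overlap for 5 of the 7 lncRNAs, beside 61.2% of all tested genes. The median log2 fold change was -0.27 over the 7 lncRNAs and 0.01 over all tested genes.

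The promoters of MALAT1 and H19, which were called lower, and of TUG1, which was not, are shown as the RefSeq sequence of GRCh38.p14 from 250 bases before to 50 bases after the start, along the transcript. Of the 9 lncRNAs, 5 had an entry (MALAT1, GAS5, H19, TUG1 and MEG3), while UCA1, NEAT1, PVT1 and HOTAIR had none. Motifs were searched on both strands and their matches are in capitals. The promoter of MALAT1 (chr11:65497488-65497787, plus strand) held 2 matches to TGACNNNGC, the core of the antioxidant response element, which 13.3% of all 35116 promoters of this length hold at least once. The promoter of H19 (chr11:2001217-2001516, minus strand) held none of the searched letters, which also included the AP-1 site TGANTCA (7.71% of promoters), the E-box CACGTG (7.26%), CCAAT (34.6%) and TATAAA (11.5%). The promoter of TUG1 (chr22:30969015-30969314, plus strand) held 1 E-box, a palindrome that matches both strands at once, and CCAAT on each strand. Those of GAS5 and MEG3, not printed, held CCAAT as well, and that of MEG3 also TATAAA.
MALAT1 promoter: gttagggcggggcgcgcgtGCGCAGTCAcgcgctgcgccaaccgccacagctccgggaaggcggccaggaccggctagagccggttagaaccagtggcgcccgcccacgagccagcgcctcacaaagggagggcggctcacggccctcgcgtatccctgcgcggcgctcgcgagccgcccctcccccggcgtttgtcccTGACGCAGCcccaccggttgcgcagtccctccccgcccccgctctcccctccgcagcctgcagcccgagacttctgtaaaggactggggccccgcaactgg
H19 promoter: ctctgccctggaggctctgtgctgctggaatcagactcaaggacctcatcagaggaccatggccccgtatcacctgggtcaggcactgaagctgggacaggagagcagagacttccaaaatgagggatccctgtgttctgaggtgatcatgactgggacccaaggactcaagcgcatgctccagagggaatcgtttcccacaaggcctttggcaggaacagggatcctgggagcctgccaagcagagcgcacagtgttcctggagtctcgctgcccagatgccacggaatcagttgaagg
TUG1 promoter: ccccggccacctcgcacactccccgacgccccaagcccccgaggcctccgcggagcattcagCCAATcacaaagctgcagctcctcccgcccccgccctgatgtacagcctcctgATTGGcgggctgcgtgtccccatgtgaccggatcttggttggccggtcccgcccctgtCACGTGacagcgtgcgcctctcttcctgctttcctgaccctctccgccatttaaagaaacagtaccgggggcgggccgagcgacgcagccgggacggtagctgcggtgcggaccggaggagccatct
These matches describe the letters in the windows and are not sites shown to be bound. The promoters of MALAT1 and TUG1 shared none of the searched motifs, and that of H19, with no match at all, could share none with either.

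**Figure D1:**
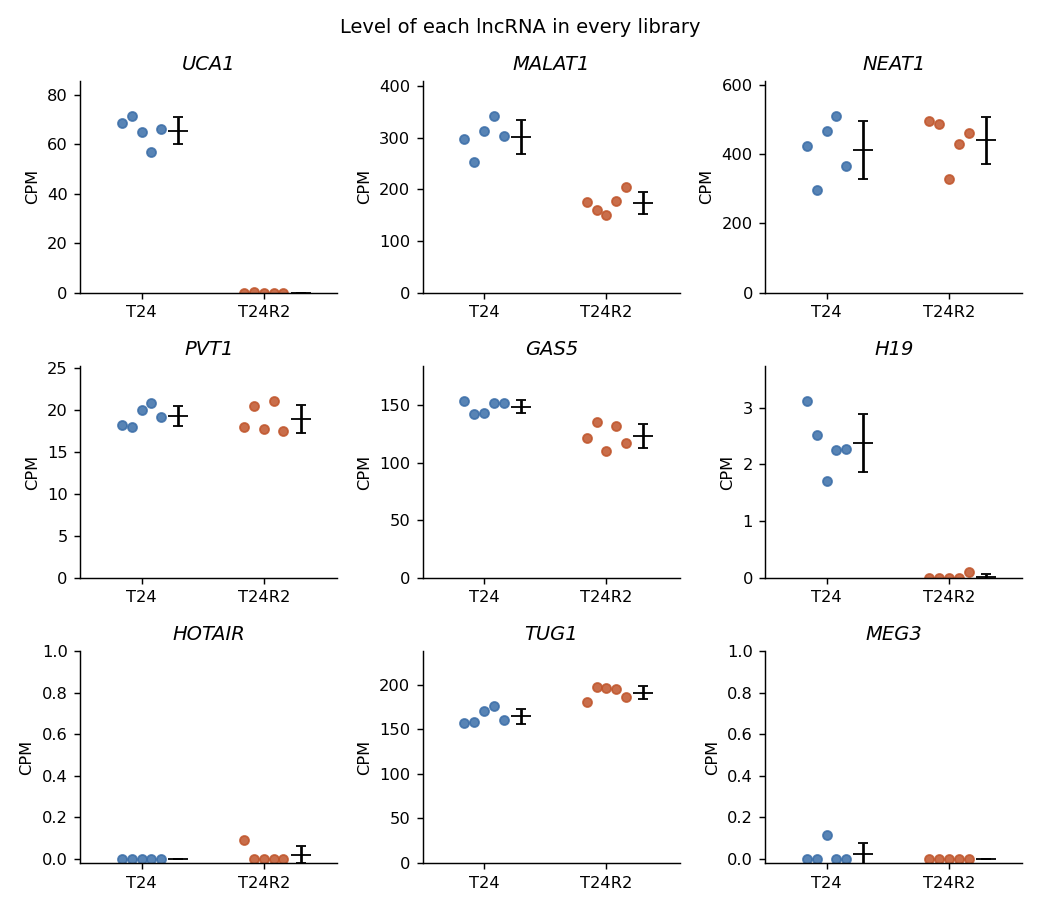
Each panel plots the level of 1 lncRNA in CPM, counts scaled to library size (linear axis), in the 5 T24 libraries (blue) and the 5 T24R2 libraries (orange), with the mean and SD beside the points. UCA1 and H19 were at or next to 0 in T24R2, the MALAT1 libraries of both lines were apart, those of NEAT1 and PVT1 overlapped, and HOTAIR and MEG3 had 1 count each.

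UCA1 (ENSG00000214049.8; hg38 chr19:15828206-15836328, plus strand, 4154 exon bases) was read in every T24 library and was next to absent from T24R2. In T24 replicates 1 to 5 it had 659, 677, 567, 528 and 610 fragment counts. In T24R2 replicates 1 to 5 it had 0, 1, 0, 0 and 0 counts. All 5 T24 libraries were therefore far above all 5 T24R2 libraries. Its level was 65.4 ± 5.42 CPM (SD, n = 5) in T24, where CPM is the count relative to a library size scaled by the TMM method. The summed level was 3552 times higher in T24 than in T24R2, with a 95% exact conditional (Clopper-Pearson) interval of 637 to 140325 that covers counting error only, since T24R2 had 1 count in all. The adjusted p was 1.7e-34 by edgeR's quasi-likelihood test, and the exact permutation p of the CPM values was 0.00794, the smallest that 5 against 5 libraries can give. These are bulk cell line samples, in which fewer cells of a type and less RNA per cell cannot be told apart.

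UCA1 was among 242 of the 16181 tested genes that never had more than 3 counts in a T24R2 library. Of these, 42 were lncRNA genes, out of 2943 tested. Genes this low in T24R2 passed the count filter only through their T24 counts, so ranks among them describe T24 levels alone. Ordered by mean T24 CPM without regard to length, UCA1 was the 11th of the 242 and the 2nd of the 42 lncRNA genes, after the unnamed ENSG00000287510 at 78.6 CPM in T24. In T24 itself UCA1 was the 94th of 2943 tested lncRNA genes by CPM. The 3 tested genes whose log2 CPM followed that of UCA1 most closely over the 10 libraries were LINC01764 (Pearson's r 0.99973), C9orf64 (0.99967) and PTX3 (0.99966), a secreted pentraxin of innate immunity. They went from 36.2 to 0.0173 CPM, from 25.8 to 0.0365 CPM and from 605 to 15.4 CPM between T24 and T24R2. These r values describe the gap between the lines, which the 10 libraries share, and 948 tested genes had an r over 0.99.

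The gene most like UCA1 also shares its bases. LINC01764 lies on the opposite strand and shares 1083 exon bases with UCA1, 26.1% of the exon bases of UCA1 and 44.2% of its own. It had 323, 411, 320, 291 and 335 counts in T24 and 0, 1, 0, 0 and 0 in T24R2, which is 49.0% to 60.7% of the UCA1 counts in each T24 library. A second opposite-strand model, ENSG00000288618, shares 219 exon bases and had 0 counts. Counting used the strand of each fragment, but the library kit is not described as strand-specific in the labels. Across the tables, 304 gene models of at least 300 bases lie wholly within the exons of an opposite-strand gene that has at least 1000 counts, and they carried a median of 1.74 times the counts per base of that gene (quartiles 0.565 and 2.68), with 9 at no count. Among such models, ENSG00000269987 in TUG1 carried 3.02 times and ENSG00000270117 in MALAT1 0.00382 times the counts per base of its host. Since these ratios varied widely, UCA1 and LINC01764 counts from the shared bases cannot be told apart with certainty. The near absence in T24R2 holds for both genes together. With all LINC01764 counts taken off, also those from bases not shared, UCA1 was still called lower. That follows from LINC01764 having fewer counts than UCA1 in every T24 library, so it cannot assign the loss to 1 of the genes.

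**Figure D2:**
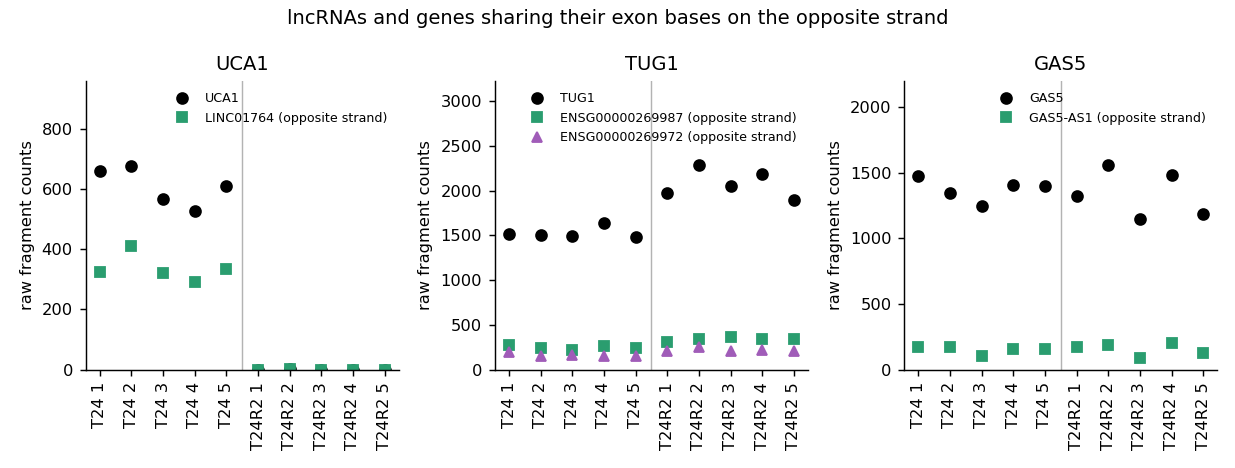
Raw fragment counts (linear axes) of UCA1, TUG1 and GAS5 (black circles) and of named genes that share their exon bases on the opposite strand (green squares, purple triangles) in each of the 10 libraries. LINC01764 had 49.0% to 60.7% of the UCA1 counts in T24 and 1 count in T24R2, while the plotted partners of TUG1 and GAS5 had counts in every library of both lines.

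Besides LINC01764, 1 tested gene within 500 kb of UCA1 was called lower. Genes that share exon bases with a lncRNA on the opposite strand are left out of the counts of neighbors here and for the other lncRNAs. Of the 16 remaining tested genes within 500 kb, 4 were called higher and 1 lower, with a median log2 fold change of 0.18. The nearest tested gene below UCA1 was WIZ, a zinc finger gene 378 kb away, at 57.7 ± 2.82 CPM in T24 and 99.7 ± 3.25 CPM in T24R2. Above it, ENSG00000267056 lay 74.3 kb away at 0.128 CPM in T24 and 3.62 CPM in T24R2. CYP4F11, a fatty acid hydroxylase gene of the same side, rose from 3.20 ± 0.863 to 19.1 ± 2.05 CPM, and FAM32A rose from 50.2 to 80.6 CPM. The lower gene was HSH2D, an adaptor gene of blood cells, at 2.52 CPM in T24 and 0.0553 CPM in T24R2. The other 11 were not called.

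H19 (ENSG00000130600.20; hg38 chr11:1995171-2001470, minus strand, 2902 exon bases) showed the same pattern at a lower level. It had 30, 24, 15, 21 and 21 counts in T24 and 0, 0, 0, 0 and 1 in T24R2. The lines did not overlap, at 2.38 ± 0.507 CPM (SD, n = 5) in T24 and at most 0.0983 CPM in a T24R2 library. The summed level was 130 times higher in T24, with a 95% exact counting interval of 22.8 to 5166, and the adjusted p was 3.5e-12 by edgeR's quasi-likelihood test. Among the 242 genes next to absent from T24R2, which passed the count filter only through T24, H19 was the 185th by T24 CPM. The opposite-strand model ENSG00000275266, whose bases lie wholly within H19 exons, had 31 counts in T24 and 0 in T24R2, 8.33% to 42.9% of the H19 counts per T24 library, so part of these few fragments cannot be assigned to a strand. With the opposite-strand counts taken off, H19 was filtered out for low counts and the call was lost.

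H19 is transcribed from the imprinted domain that also holds IGF2, the growth factor gene expressed from the paternal allele. IGF2 had 52 counts in T24 and 0 in T24R2, at least 20.2-fold lower in T24R2 with 3 counts over the line as the floor, and it was too low to be tested. Of 9 tested genes within 500 kb of H19, 0 were higher and 3 were lower, namely MOB2 (47.6 to 26.0 CPM), DUSP8 (2.19 to 0.845 CPM) and LSP1 (1.96 to 0.0572 CPM). The nearest tested gene, the mitochondrial ribosome gene MRPL23 10.6 kb away, had a log2 fold change of -0.33 (SE 0.06), under the fold minimum. CD81-AS1, the nearest on the other side at 327 kb, had -0.09 (SE 0.11, adjusted p 0.43 by edgeR's quasi-likelihood test).

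Imprinted genes from this and other domains were also examined. Of 12 on the list, 6 were tested. Of these, 4 were called lower and 0 higher, beside 26.5% and 24.9% of all tested genes. The median log2 fold change was -0.72 over the 6 and 0.01 over all tested genes. PHLDA2, a growth restrainer of the placenta on the same chromosome arm as H19, fell by 1.23 on the log2 scale (SE 0.15), from 18.5 ± 4.66 to 7.86 ± 1.84 CPM. MEST fell from 5.90 to 3.10 CPM, NNAT from 2.22 to 1.30 CPM and SNRPN from 4.70 to 2.89 CPM. Without T24R2 replicate 3, 2 genes of the list were called lower. MEG3 (ENSG00000214548.18; hg38 chr14:100779410-100861031, plus strand) had 1 count, in T24 replicate 3, and its domain partners DLK1, RTL1, MEG8 and MEG9 had 0 counts in every library, as did PEG3. A count of 3 in a library corresponds to 0.26 to 0.343 CPM, so levels below this were not detectable for MEG3 in either line.

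**Figure D3:**
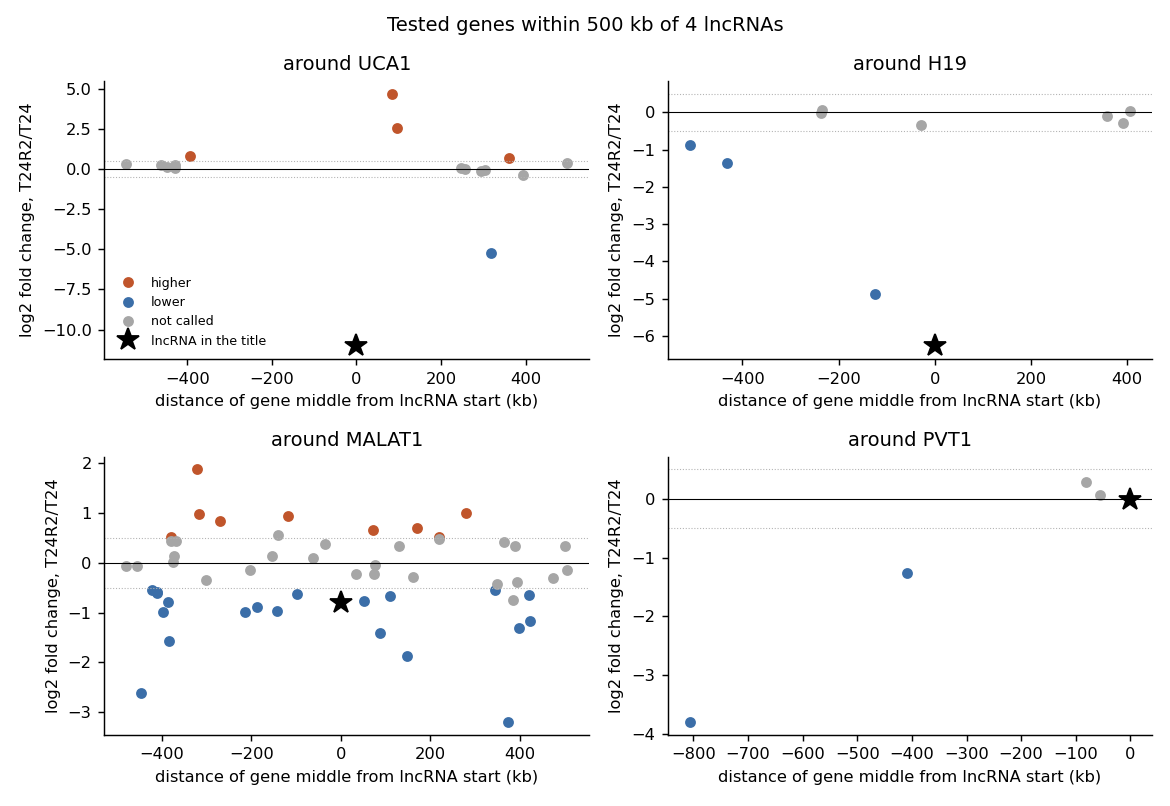
Log2 fold change (T24R2/T24) of tested genes within 500 kb of UCA1, H19, MALAT1 and PVT1, without those that share exon bases on the opposite strand, against the distance of the gene's middle from the start of the lncRNA (kb), colored by call, with the lncRNA as a star; the middle of a long gene can lie beyond 500 kb. UCA1 and H19 lay far below most plotted neighbors, with fitted values that depend on the prior count because T24R2 had 1 count of each, while MALAT1 lay among its neighbors and PVT1 near 0.

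MALAT1 (ENSG00000251562.9; hg38 chr11:65497688-65506516, plus strand, 8829 exon bases in 1 block) was lower in T24R2 but still abundant. Its levels in T24 were 297, 252, 313, 341 and 302 CPM. In T24R2 they were 176, 159, 151, 177 and 205 CPM. The highest T24R2 library was below the lowest T24 library. The mean was 301 ± 32.2 CPM in T24 and 173 ± 20.5 CPM in T24R2 (SD, n = 5), or 57.6% of T24, a log2 fold change of -0.80 (SE 0.06, adjusted p 1.5e-14 by edgeR's quasi-likelihood test). A fold minimum of 1 on the log2 scale ended the call. Opposite-strand counts touched MALAT1 little, since ENSG00000270117, which lies wholly within it near its start, had 3 counts in T24 and 1 in T24R2.

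NEAT1 (ENSG00000245532.10; hg38 chr11:65422774-65445540, plus strand, 22767 exon bases) lies upstream of MALAT1 on the same strand and was not called. Its levels in T24 were 424, 295, 468, 509 and 366 CPM. In T24R2 they were 494, 488, 327, 429 and 461 CPM. The lines overlapped over most of their range. Isoforms of NEAT1 were counted together and could not be told apart. The coefficient of variation of NEAT1 was 20.5% in T24 and 15.5% in T24R2, where that of MALAT1 was 10.7% and 11.8%. The means were 412 ± 84.4 and 440 ± 68.0 CPM, a log2 fold change of 0.09 (SE 0.09, adjusted p 0.334 by edgeR's quasi-likelihood test). The exact permutation p was 0.587. By DESeq2 the same fold change had an SE of 0.17 and an adjusted p of 0.648. The sign turned without T24 replicate 2 (-0.01), and without T24R2 replicate 3 the value was 0.19 (adjusted p 0.0126 by the same edgeR test), still under the fold minimum. No gene on the opposite strand shares exon bases with NEAT1.

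The windows of MALAT1 and NEAT1 overlap and held many genes of both directions. Within 500 kb of MALAT1, 55 genes were tested, 9 were higher and 20 lower (median -0.22), and around NEAT1 22 of 54 were lower and 9 higher (median -0.26). FAUP4, a pseudogene between them, was at 9.22 ± 2.41 and 12.1 ± 1.21 CPM and was not called. FRMD8, 9.25 kb from NEAT1, fell by 0.62 (SE 0.06) on the log2 scale, from 107 ± 6.46 to 69.9 ± 7.97 CPM.

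Most protein genes of the nuclear bodies that these RNAs occupy were not called. Of 11 paraspeckle protein genes, all tested, 0 were called in either direction by edgeR, DESeq2 or limma-voom. By edgeR, 51.4% of all tested genes were called. Still, 8 of the 11 had an unadjusted p under 0.05 in the edgeR test. The lines did not overlap for 6 of the 11, beside 61.2% of all tested genes. The log2 fold changes of the 11 ran from -0.44 (PSPC1, 54.1 to 39.9 CPM) to 0.29 (SFPQ, 268 to 328 CPM), with NONO at 0.27, and the median was 0.03. By adjusted p with no fold minimum, 75.5% of all tested genes passed, so passing that threshold alone was common. Of 10 nuclear speckle genes, 2 rose and 2 fell, against 4 and 1 without scaling beyond library size. The splicing factors SRSF1 (63.1 to 105 CPM) and SRSF6 (115 to 192 CPM) each rose by 0.74, while the scaffold genes SRRM1 and SRRM2 fell by 0.65 and 0.71 on the log2 scale. SRRM2 went from 836 ± 20.5 to 512 ± 33.6 CPM.

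PVT1 (ENSG00000249859.13, 25320 exon bases in 59 blocks on chromosome 8) was not called. It was at 18.2, 18.0, 20.0, 20.8 and 19.1 CPM in T24 and at 18.0, 20.5, 17.7, 21.0 and 17.5 CPM in T24R2. The lines overlapped, at 19.2 ± 1.18 and 18.9 ± 1.68 CPM, and the log2 fold change was -0.02 (SE 0.09, adjusted p 0.867 by edgeR's quasi-likelihood test; exact permutation p 0.738). Its sign turned under 3 other settings and with 4 of the 10 libraries left out, within values of -0.05 to 0.15. On the opposite strand, ENSG00000278275 shares 295 exon bases with PVT1 and had 3.06% to 9.55% of its counts over the 10 libraries. That model had a log2 fold change of 0.42 (SE 0.36) and was not called. RNU4-25P, also on the opposite strand, shares 63 exon bases and had 0 counts. MYC, the oncogene 51.6 kb before PVT1, was at 154 ± 6.99 and 161 ± 5.04 CPM (log2 fold change 0.07, SE 0.05, adjusted p 0.179 by edgeR). MYC, too, overlapped between the lines. Of the 4 tested genes within 500 kb of PVT1, the lncRNA genes PCAT1 and CASC8 fell, while CASC11 and MYC were not called. PCAT1 fell by 3.80 (SE 0.16) on the log2 scale, from 19.9 ± 1.70 to 1.42 ± 0.216 CPM, and CASC8 fell from 4.04 to 1.66 CPM. GSDMC, the nearest tested gene beyond PVT1 at 1560 kb, fell from 3.96 to 2.29 CPM, with 1 of the 5 T24 libraries far below the others.

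GAS5 (ENSG00000234741.9; hg38 chr1:173858559-173868882, minus strand, 4932 exon bases) was slightly lower in T24R2. Its T24 libraries were at 153, 142, 143, 152 and 152 CPM. Its T24R2 libraries were at 121, 135, 110, 132 and 117 CPM. The lines did not overlap, but the difference was small beside the fold minimum. The log2 fold change was -0.27 (SE 0.05, adjusted p 1.6e-05 by edgeR's quasi-likelihood test), from 148 ± 5.30 to 123 ± 10.3 CPM, so GAS5 was not called. Without scaling beyond library size it was -0.10 (adjusted p 0.0729), a setting that moved the median of all tested genes to 0.18. GAS5-AS1 is 1 of 2 opposite-strand genes with counts that share exon bases with GAS5, and the other is not reported here. GAS5-AS1 shares 132 exon bases with GAS5 and had 7.39% to 13.5% of its counts over the 10 libraries. Its log2 fold change was -0.20 (SE 0.14, not called). With the counts of both genes taken off, GAS5 was at -0.39 (SE 0.08, adjusted p 3.7e-05 by edgeR's quasi-likelihood test), still under the fold minimum. Around GAS5, 4 of 7 tested genes rose and 0 fell, among them PRDX6, a peroxide-reducing enzyme (126 ± 5.04 to 195 ± 7.35 CPM), RC3H1 (14.6 to 28.7 CPM), KLHL20 (13.3 to 22.6 CPM) and PRDX6-AS1 (0.993 to 1.92 CPM). CENPL, 33.7 kb away, had 0.39 (SE 0.09) without being called.

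The other snoRNA hosts did not share 1 direction. Of 15 such lncRNAs, all tested, 5 fell, 2 rose and 8 were not called, with a median log2 fold change of -0.16. Over all tested genes, 26.5% were called lower and 24.9% higher. The lines did not overlap for 10 of the 15, beside 61.2% of all tested genes. SNHG16 fell by 1.19 (107 ± 9.51 to 46.8 ± 3.43 CPM) and SNHG1 by 0.81 (143 ± 5.97 to 81.2 ± 4.49 CPM). SNHG19 fell by 1.46 (22.5 ± 1.65 to 8.18 ± 3.71 CPM), SNHG12 by 0.84 and SNHG15 by 0.72 on the log2 scale. DANCR rose by 1.31 (17.6 ± 1.55 to 43.5 ± 4.85 CPM) and SNHG17 by 0.62. SNHG29, the most abundant of them by CPM, was at 397 ± 19.6 and 377 ± 35.5 CPM. Many snoRNA hosts belong to the terminal oligopyrimidine class, whose RNAs start with C and a run of pyrimidines and respond to growth signals at translation. Of the 13 hosts with a RefSeq promoter entry, 4 started with C and at least 4 pyrimidines, beside 4.07% of all promoters. Their starts are shown from 10 bases before to 20 bases after the RefSeq start in GRCh38.p14, with the run in capitals.
SNHG5 (chr6:85678714-85678743, minus strand): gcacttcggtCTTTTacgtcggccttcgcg
SNHG12 (chr1:28581854-28581883, minus strand): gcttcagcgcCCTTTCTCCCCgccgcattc
SNHG19 (chr16:2155339-2155368, minus strand): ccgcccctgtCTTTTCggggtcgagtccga
ZFAS1 (chr20:49278632-49278661, plus strand): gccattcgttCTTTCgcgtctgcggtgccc
Of these 4, SNHG12 and SNHG19 fell, and SNHG5 (0.40, SE 0.22) and ZFAS1 (-0.36, SE 0.07) were not called. Only SNHG5 was above 0, with an adjusted p of 0.101 by edgeR's quasi-likelihood test.

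TUG1 (ENSG00000253352.10; hg38 chr22:30969245-30979395, plus strand, 10151 exon bases) was slightly higher in T24R2. Its T24 libraries were at 157, 158, 171, 176 and 160 CPM. Its T24R2 libraries were at 181, 198, 196, 195 and 186 CPM. The lowest T24R2 library was just above the highest T24 library. The means were 164 ± 8.42 and 191 ± 7.26 CPM, a log2 fold change of 0.22 (SE 0.05, adjusted p 5.8e-05 by edgeR's quasi-likelihood test), under the fold minimum. Both opposite-strand models inside TUG1 moved alongside it without being called, ENSG00000269987 at 0.24 (SE 0.08) with 14.9% to 18.0% of the TUG1 counts and ENSG00000269972 at 0.20 (SE 0.10) with 9.58% to 12.9%. The first of these carried 3.02 times the counts per base of TUG1. MORC2, the gene 0.471 kb before TUG1 on the other strand, was at 52.5 ± 2.47 and 51.3 ± 3.81 CPM and overlapped. SMTN, a smooth muscle cytoskeleton gene 84.7 kb beyond it, fell by 1.29 (SE 0.05) on the log2 scale, and of 21 tested genes in the window 3 rose (SELENOM, LINC01521 and EIF4ENIF1) and 6 fell.

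HOTAIR (ENSG00000228630.5; hg38 chr12:53962308-53974956, minus strand) had 1 count, in T24R2 replicate 1, and was not detectable at this depth in either line. Its nearest tested neighbors rose from low levels. HOXC13 was at 0.921 ± 0.32 CPM in T24 and 4.24 ± 0.359 CPM in T24R2 (log2 fold change 2.18, SE 0.27), and HOXC10 was at 0.602 ± 0.117 and 2.21 ± 0.286 CPM (1.85, SE 0.33). Neither gene overlapped between the lines. Of 25 tested genes within 500 kb of HOTAIR, 6 were higher, all of them of the HOXC cluster (HOXC13, HOXC10, HOXC9, HOXC-AS1, HOXC8 and HOXC4), and 6 were lower. The other tested genes of the cluster were HOXC6 (0.48, SE 0.18) and HOXC-AS2 (0.57, SE 0.35), which were not called. Around MEG3, 1 of 7 tested genes was higher (ENSG00000258666, 18.2 to 29.5 CPM) and 3 were lower (SLC25A29, ENSG00000258504 and ENSG00000259052). The nearest tested genes were WDR25 at 249 kb (-0.07, SE 0.15) and LINC00239 at 869 kb, at 0.0665 CPM in T24 and 1.62 CPM in T24R2.

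Levels were also set side by side per kilobase of exon (CPM per kb), which divides the CPM by the summed exon bases of all isoforms and so understates genes with many alternative exons such as PVT1. In T24 the order was MALAT1 (34.1), GAS5 (30.1), NEAT1 (18.1), TUG1 (16.2), UCA1 (15.7), H19 (0.819) and PVT1 (0.758). Neighbors in this order overlapped between libraries except GAS5 with NEAT1 and UCA1 with H19. UCA1 thus lay within the range of TUG1 and NEAT1 in T24. In T24R2 the order was GAS5 (25.0), MALAT1 (19.7), NEAT1 (19.3), TUG1 (18.9), PVT1 (0.747), H19 (0.00678) and UCA1 (0.00417). There the 4 highest overlapped each with the next, and PVT1 overlapped with neither neighbor.

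**Figure D4:**
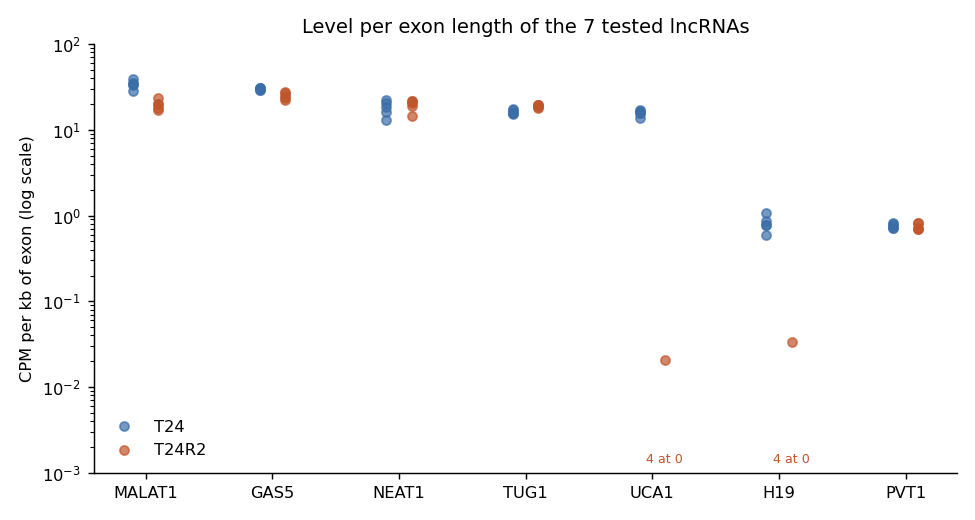
CPM per kb of exon on a log axis in each library of T24 (blue) and T24R2 (orange) for the 7 tested lncRNAs, ordered by T24 mean, with libraries at 0 given as a number at the bottom. UCA1 went from a mean of 15.7 in T24, near that of TUG1 (16.2), to 4 libraries at 0 in T24R2. The T24R2 means of MALAT1, GAS5, NEAT1 and TUG1 were 18.9 to 25.0 and their libraries ran from 14.4 (NEAT1) to 27.4 (GAS5).

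Other lncRNAs that are studied in cancer were called in both directions. Of 27 on a second list, 26 were in the tables and 20 were tested. Among these, 12 fell, 4 rose and 4 were not called, with the shares of all tested lncRNA genes at 24.4% and 29.9%, and the median log2 fold change was -0.56. Without scaling beyond library size, 8 fell and 6 rose, and with upper-quartile normalization 10 fell and 4 rose. LINC00958, which is studied in bladder cancer, fell by 1.68 (SE 0.07), from 56.7 ± 2.11 to 17.7 ± 1.29 CPM. LINC00511 fell by 3.03 (SE 0.20), from 10.2 ± 1.65 to 1.24 ± 0.178 CPM, and PCAT1 is given above with PVT1. HOTTIP, a lncRNA of the HOXA cluster, had 296 counts in T24 and 2 in T24R2, 173 times higher in T24 with a 95% exact counting interval of 47.4 to 1434. BLACAT1, named for bladder cancer, fell by 0.81 (SE 0.13), from 13.4 ± 1.97 to 7.66 ± 1.03 CPM. The 4 that rose were FTX, a lncRNA of the X inactivation center (32.0 ± 2.50 to 73.7 ± 4.72 CPM), LUCAT1 (10.1 to 17.5 CPM), MIR22HG (0.685 to 2.76 CPM) and HULC (0.608 to 1.78 CPM). NORAD, which sequesters Pumilio proteins, was the most abundant by CPM at 577 ± 51.5 and 486 ± 23.8 CPM and was not called.

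**Figure D5:**
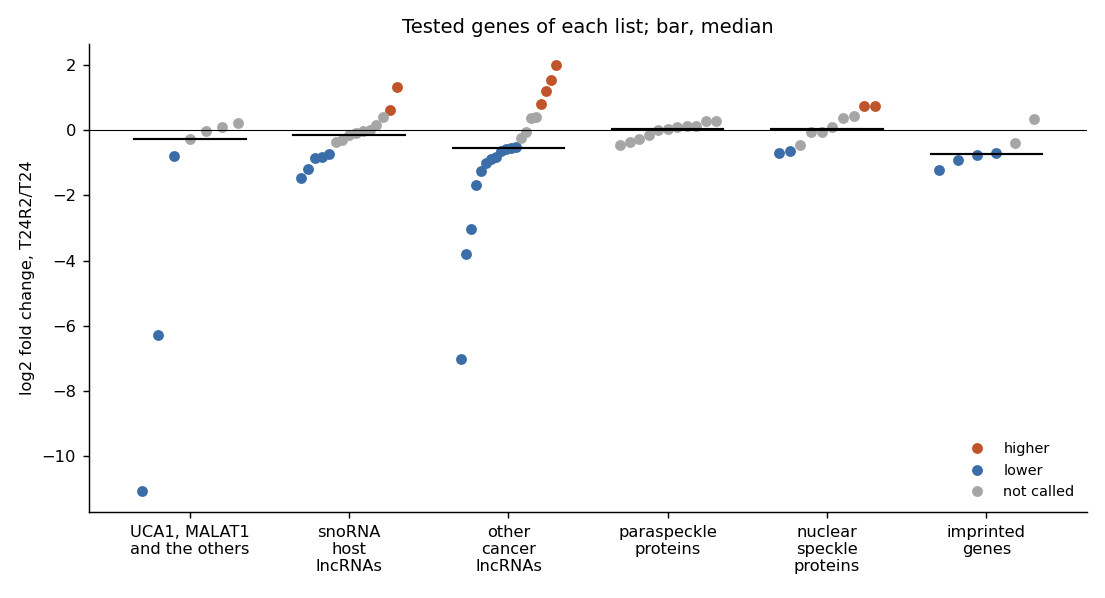
Log2 fold change (T24R2/T24) of every tested gene of 6 lists, colored by call, with the median of each list as a bar. The 7 tested cancer lncRNAs reach from -11.05 (UCA1) to 0.22 (TUG1), the other cancer lncRNAs from -7.02 (HOTTIP) to 1.99, and the paraspeckle genes stay within -0.44 to 0.29.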

How the data were processed

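RNA-seq libraries of 5 T24 and 5 T24R2 replicates were analysed. The authors used STAR 2.7.0 for alignment to hg38, removed multi-mapped and duplicate reads (SAMtools 1.10) and assigned fragments to GENCODE release 39 genes by featureCounts 2.0.1 with strand option 1. The deposited tables hold these raw counts, neither normalized nor pooled. Removal of duplicates may lower the counts of abundant transcripts, and fragments that overlap genes on the same strand were left unassigned.

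The lines were compared by edgeR 4.0.16 in R 4.3.3 (filterByExpr, TMM, glmQLFit, glmQLFTest) and Benjamini-Hochberg adjustment over 16181 genes. Calls used the thresholds of the study's methods, 0.05 for the adjusted p and 0.5 for the size of the log2 fold change. Each SE was derived as the size of the log2 fold change over the square root of the test's F statistic. It can understate the spread between libraries. DESeq2 gave an SE of 0.17 for NEAT1 and 0.10 for MALAT1, where edgeR gave 0.09 and 0.06. For PVT1, GAS5 and TUG1 DESeq2 gave 0.10, 0.06 and 0.05, where edgeR gave 0.09, 0.05 and 0.05. For each named lncRNA an exact two-sided permutation test of its CPM was also run. Symbols were matched by Ensembl identifier for 61415 of 61533 genes. Exon bases shared between strands were found with bedtools 2.31.1, and promoters were read from a RefSeq table of GRCh38.p14. Total counts of 9257843 to 10840954 per library set the depth. Intervals and the floor of 3 counts cover counting error only.

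The 9 lncRNAs and the gene lists were chosen with earlier results of these data known. Named besides them were genes that share their exon bases on the opposite strand, the nearest tested genes, up to 4 called genes of each list by adjusted p and the 3 genes most like UCA1 over the libraries. Other genes, such as IGF2, HSH2D, CYP4F11, LSP1, PRDX6 and BLACAT1, were named after their values were seen. The results of some genes that this rule covers are not reported here. The check of models nested in opposite-strand exons was also chosen after the data were seen. The alternatives were no scaling, upper-quartile normalization, DESeq2 1.42.0 without and with normal shrinkage, limma-voom (limma 3.58.1), other count filters, a replicate block, another fold minimum, removal of opposite-strand counts or mitochondrial genes and leaving out each library. The steps were tested on simulated data. Python 3.11.15 with pandas 2.3.3, SciPy 1.17.1 and matplotlib 3.10.9 was used for other steps.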

Additional observations from a re-analysis of the deposited data

Results flagged for a closer look

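Among 52 groups of 5 libraries checked for the lncRNAs and the genes named beside them, 6 held a library far from the other 4, where chance gives about 2.6. None of the 6 was a group of the 9 lncRNAs themselves, and 4 were T24R2 replicate 3. In that library MYC was at 170 CPM (the others 157 to 161 CPM), RC3H1 at 26.4 CPM (29.0 to 29.9 CPM), MRPL23 at 69.4 CPM (54.4 to 57.0 CPM) and SMTN at 77.2 CPM (71.1 to 72.1 CPM). In T24 replicate 3, GAS5-AS1 was at 12.0 CPM (16.8 to 18.3 CPM). In T24 replicate 4, GSDMC was at 1.83 CPM (4.21 to 4.63 CPM).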

How the results depend on the processing

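Of 387 values recomputed under 21 alternatives, 366 were graded the same. For a fold change this meant the same direction and the same call. A count of called genes graded the same could still change by a limited factor, such as lncRNAs called lower going from 3 to 2. Under any of the 21, 0 lncRNAs were called higher. Of the lncRNAs, 3 were called lower under each alternative except opposite-strand counts taken off, a mean of at least 100 counts and a fold minimum of 1, which gave 2. H19 gave no value with opposite-strand counts taken off or at a mean of at least 100 counts, since it was filtered out. A fold minimum of 1 left MALAT1 (-0.80) uncalled, 2 snoRNA hosts lower and 1 higher, 6 other cancer lncRNAs lower, 0 nuclear speckle genes lower and 0 higher, and 1 imprinted gene lower. At a mean of at least 100 counts, 5 other cancer lncRNAs were lower and 2 higher, 1 imprinted gene was lower and PVT1 was at 0.01. Without scaling, 1 nuclear speckle gene was lower and 4 were higher, and PVT1 was at 0.15, NEAT1 at 0.26 (adjusted p 0.0111 by edgeR) and TUG1 at 0.38. With upper-quartile normalization, PVT1 was at 0.06. Leaving out 1 library gave 2 to 4 imprinted genes lower (2 without T24R2 replicate 3), NEAT1 at -0.01 to 0.19, PVT1 at -0.05 to 0.01, MALAT1 at -0.86 to -0.75, GAS5 at -0.30 to -0.23 and TUG1 at 0.20 to 0.24. The cause of these shifts was not tested, beyond the fewer genes or libraries that a setting used. The calls over all genes were 8309, and 4991 at a mean of at least 100 counts and 4211 at a fold minimum of 1. Levels near the floor of 3 counts limit HOTAIR, MEG3 and the T24R2 values of UCA1 and H19.

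With the replicate number as a block, UCA1 was at -11.05, MALAT1 at -0.80, H19 at -6.28, GAS5 at -0.27 and TUG1 at 0.22, and 8240 genes were called. The numbers are not shown to pair the libraries, since same-numbered libraries had deviations that correlated at -0.021 to 0.016 and 1 of 5 matched its own number best. The block changed no call among the 9 lncRNAs.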
